A study of Mus musculus with 4 samples.

Results

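Ptch1 and Gli3 are genes of the Hedgehog response, and the Meis peaks around them in forelimb (FL) and hindlimb (HL) buds are described here one by one. A peak was taken when its summit, the position of highest signal, lay on chromosome 13 of mm9 between 63.4 and 64.0 Mb for Ptch1 or between 15.3 and 16.1 Mb for Gli3. These windows are defined by position alone, but they were chosen with earlier results of these data known. They held 32 of the 38325 peaks of both lists, of which 19 of 21338 were FL peaks and 13 of 16987 were HL peaks. Ptch1 had 9 FL peaks and 5 HL peaks, and Gli3 had 10 FL peaks and 8 HL peaks. The precise ends of both genes in mm9 were not at hand. Approximate intervals were used instead, 63.61 to 63.67 Mb for Ptch1 (minus strand) and 15.55 to 15.82 Mb for Gli3 (plus strand). Distances from the 5′ edge of a gene are therefore good to about 10 kb only, and peaks could not be assigned to exons or introns.

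Ptch1 encodes the membrane receptor of Hedgehog ligands, which keeps the pathway off until a ligand binds. Gli3 encodes a zinc finger transcription factor that is cut to a repressor when the pathway is off and is spared from cutting when it is on. In the limb bud, Sonic hedgehog comes from the posterior margin. Ptch1 is itself switched on by the pathway, so its transcripts mark the responding posterior cells, whereas Gli3 is transcribed mainly in the anterior bud, where it opposes Hand2. Meis1 and Meis2 are homeodomain transcription factors of the proximal limb bud that bind DNA with Pbx and Hox partners.

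All buds came from wild-type C57BL/6 embryos at E10.5 (36 somites), with about 500 FLs and about 500 HLs pooled. Chromatin of each limb was precipitated once, with a mixture of an antibody against Meis1a, Meis2a and Meis2c and an antibody against every Meis1 isoform, so binding of Meis1 and of Meis2 cannot be told apart. For each limb there was a single ChIP library beside its input, without replicates, so the limbs are compared by description only. The peak lists hold no expression values, so the labelled tissue could not be checked against marker genes. They hold no read counts either, so the depth behind each value is not given here. For every peak they give the fold enrichment of the ChIP signal over the input, a p-value and a q-value, all computed by the peak caller of the authors.

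The promoters of both genes are shown first because weak peaks, but none of the strong ones, lay near the 5′ edges of the genes. They are the 250 bases before the RefSeq start in GRCm38, at chr13:63565736-63565985 on the minus strand for Ptch1 and at chr13:15463473-15463722 on the plus strand for Gli3. Positions in this build cannot be compared with the mm9 positions of the peaks. In the GENCODE annotation of this build, Ptch1 runs from 63508328 to 63573598 and Gli3 from 15463235 to 15730026. Both stretches thus lie inside the annotated genes and not at their outermost 5′ ends, which leaves the sequence there unsearched. The sequences run 5′ to 3′ and end just before the start, with CG dinucleotides in capitals.
Ptch1: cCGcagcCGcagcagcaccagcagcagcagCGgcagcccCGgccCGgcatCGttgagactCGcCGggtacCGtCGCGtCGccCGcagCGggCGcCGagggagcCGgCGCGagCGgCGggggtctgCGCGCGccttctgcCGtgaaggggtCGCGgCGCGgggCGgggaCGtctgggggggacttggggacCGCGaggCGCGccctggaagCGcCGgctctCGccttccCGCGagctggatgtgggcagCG
Gli3: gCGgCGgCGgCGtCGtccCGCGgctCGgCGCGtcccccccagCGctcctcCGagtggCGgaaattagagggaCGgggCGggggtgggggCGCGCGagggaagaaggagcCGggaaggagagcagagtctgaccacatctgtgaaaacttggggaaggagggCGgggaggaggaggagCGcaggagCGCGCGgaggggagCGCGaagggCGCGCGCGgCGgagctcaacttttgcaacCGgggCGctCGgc
Both promoters are rich in CG dinucleotides, with 41 in Ptch1 and 34 in Gli3 against a median of 6 over 32851 promoters cut in the same way. Only 1.09% of all promoters hold as many as Ptch1, and 3.53% as many as Gli3. The hexamer TGACAG, a Meis binding sequence, was searched on both strands and occurs in neither promoter, while 15.9% of all promoters hold it. The Hox-Pbx octamers TGATTTAT and TGATTGAT (held by 0.837% and 0.670% of all promoters) and the Gli sequence GACCACCCA (0.225%) have no match in either promoter. The octamers share their opening letters, and none of the motifs contains another. The absence of a match says only that these letters are not in these windows.

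In the GRCm38 annotation, Ptch1 extends over 65.3 kb on the minus strand, with 23 exons in transcript Ptch1-201. Its nearest coding neighbour downstream is Fancc, 11.0 kb away, and upstream it is Ercc6l2, 242 kb away. Gli3 extends over 267 kb on the plus strand, with 15 exons in transcript Gli3-201, and stands more alone. AW209491 lies 824 kb upstream and Inhba, which encodes a subunit of activin, lies 282 kb downstream.

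Both windows held more peaks per Mb than the genome as a whole. At Ptch1 there were 15 FL peaks per Mb, against 8.11 over all chromosomes and 7.33 on chromosome 13. HL peaks at Ptch1 reached 8.33 per Mb, against 6.46 over all chromosomes and 5.72 on chromosome 13. At Gli3 the values were 12.5 FL peaks and 10 HL peaks per Mb. When all chromosomes were cut into adjoining tiles of 600 kb, 18.4% of the tiles had at least 9 FL peaks and 28.6% had at least 5 HL peaks. Among tiles of 800 kb, 23.3% had at least 10 FL peaks and 23.9% had at least 8 HL peaks. Neither locus was thus among the densest parts of the Meis landscape.

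By the q-value, most peaks at both genes were weak. A q of at most 0.05 was reached at Ptch1 by 1 of 9 FL peaks (11.1%, 95% Wilson interval 1.99 to 43.5%) and by 0 of 5 HL peaks (interval 0 to 43.4%). At Gli3 it was reached by 2 of 10 FL peaks (20%, 5.67 to 51.0%) and by 2 of 8 HL peaks (25%, 7.15 to 59.1%). In the whole lists, 17.4% of FL peaks and 10.1% of HL peaks had such a q, and all 4 intervals include the share of their list. Intervals cover counting error only. The 5 peaks with such a q all lay upstream of a gene, 1 at Ptch1 and 4 at Gli3, and none lay in or downstream of either gene interval. A looser cutoff, p at most 0.0005, was met by 31.7% of FL peaks and 37.0% of HL peaks in the whole lists. At Ptch1 it was met by 3 of 9 FL peaks (33.3%, 12.1 to 64.6%) and by 4 of 5 HL peaks (80%, 37.6 to 96.4%). At Gli3 it was met by 4 of 10 FL peaks (40%, 16.8 to 68.7%) and by 4 of 8 HL peaks (50%, 21.5 to 78.5%). The interval of the HL peaks at Ptch1 lies just above the share of the HL list, and the other 3 include the share of their list. These intervals treat the few peaks of 1 library as independent and were not corrected for the number of comparisons.

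The strongest site at Ptch1 lay about 60 kb upstream of the gene. It had overlapping peaks in both limbs, of which only the FL peak reached a q of at most 0.05. The FL peak ran from 63729867 to 63730624, over 758 bp against a median of 166 bp in the FL list, and had a fold of 6.95 (q = 1.35e-08). The HL peak ran from 63730096 to 63730425 and had a fold of 3.57 (q = 0.386). It lay wholly within the FL peak, of which it covered 43.5%. Both peaks held 2 summits. In FLs the summits were 225 bp apart, with folds of 5.53 at 63730120 and 6.95 at 63730345. In HLs they were 149 bp apart, with folds of 2.66 at 63730199 and 3.57 at 63730348. The higher summits of FLs and HLs were thus 3 bp apart, and in both limbs they were the ones nearer to the end with the higher coordinate, that is, farther from Ptch1. The lower summits were 79 bp apart. Peaks with at least 2 summits made up 6.14% of the FL list and 4.15% of the HL list.

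**Figure D1:**
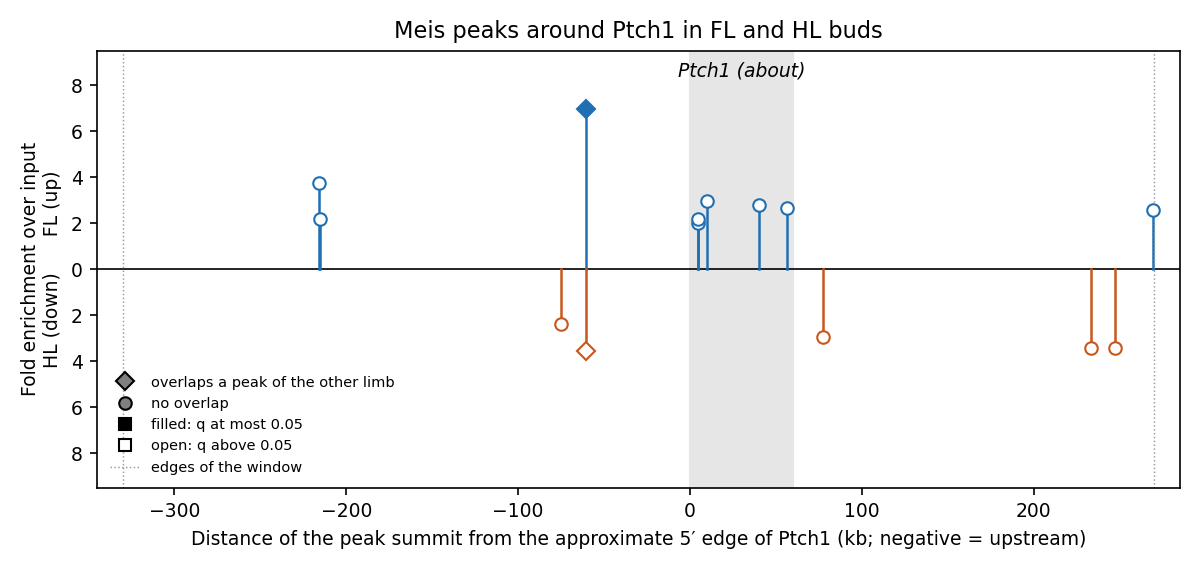
Meis peaks in the Ptch1 window, with the distance of the summit from the approximate 5′ edge of the gene on the x axis (kb, upstream to the left) and the fold enrichment over input on the y axis, FL upwards and HL downwards. The grey band is the approximate gene interval, and the single filled symbol is the FL peak with a fold of 6.95, facing the HL peak with a fold of 3.57 at the same place.

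Within the Ptch1 interval itself, peaks were found in FLs and not in HLs. The 5 FL peaks there had folds of 2.0 to 2.97 with a median of 2.66, and their lowest q was 0.815. A pair of them, 107 bp apart with folds of 2.0 and 2.17, lay about 4 to 5 kb inside the 5′ edge, and their p-values (0.0207 and 0.0192) were close to the cutoff of the list, 0.022. The next, from 63659995 to 63660173 and about 10 kb inside the edge, was the highest of them, with a fold of 2.97. The others lay about 40 and 56 kb inside the edge, with folds of 2.80 and 2.66. For all 5, the nearest HL summit was 21.4 to 67.6 kb away. An HL signal below the cutoff of the list would not be seen here.

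Farther upstream of Ptch1, about 215 to 216 kb from the gene, FLs had a pair of peaks 193 bp apart. The first had a fold of 2.17 (q = 1) and the second, from 63885800 to 63886146, had a fold of 3.76 (q = 0.105), the second highest FL fold of the window. The nearest HL summit was 141 kb away from both. HLs had a peak of their own about 75 kb upstream, with a fold of 2.37 (q = 1). On the downstream side, where Fancc lies, FLs had 1 peak, with a fold of 2.58 (q = 1), and HLs had 3. These HL peaks, about 78, 233 and 247 kb from the 5′ edge of Ptch1, had folds of 2.96, 3.40 and 3.43 and p-values of 0.000418, 0.000151 and 6.86e-05. Their q-values were high, with 0.504 as the lowest. A p of at most 0.0005 with no overlapping peak in the other limb was found for 2 of 9 FL peaks (22.2%, 6.32 to 54.7%) and 3 of 5 HL peaks (60%, 23.1 to 88.2%) at Ptch1. Over the whole lists this held for 15.4% of FL peaks and 17.9% of HL peaks. The HL interval, from 5 peaks of 1 library, lies above the share of its list, and the FL interval includes it. This difference was not tested, and the number of intervals compared was not allowed for. The 3 HL peaks are the ones downstream of the gene. They also count among the HL peaks at Ptch1 with a p of at most 0.0005, so the 2 HL shares rest on mostly the same peaks. At Gli3 the counts were 1 of 10 FL peaks (10%, 1.79 to 40.4%) and 1 of 8 HL peaks (12.5%, 2.24 to 47.1%), and both intervals include the share of the list.

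Gli3 had sites far upstream with overlapping peaks in both limbs. The most distant, about 245 kb from the 5′ edge, had peaks of nearly equal height. The FL peak ran from 15304652 to 15305140 with a fold of 4.47 (q = 5.96e-06), the highest FL fold at Gli3, and the HL peak from 15304827 to 15305051 with a fold of 4.09 (q = 0.0219). The HL peak lay wholly within the FL peak, and their summits were 18 bp apart. These 2 peaks were the only overlapping pair of either gene with a q of at most 0.05 in both limbs. At the place about 115 kb upstream, described next, each limb reached such a q in a different one of 2 adjacent peaks.

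About 115 kb upstream of Gli3, each limb had a pair of adjacent peaks, and the balance within the pair differed between the limbs. The more distal peak ran from 15434958 to 15435159 in FLs with a fold of 3.96 (q = 0.0440), and from 15434862 to 15435195 in HLs with a fold of 3.58 (q = 0.290). The more proximal one ran from 15435336 to 15435728 in FLs with a fold of 3.19 (q = 0.265), and from 15435331 to 15435699 in HLs with a fold of 7.11 (q = 3.38e-09). In FLs the proximal peak was thus the lower of the pair, at 0.805 times the fold of the distal peak, whereas in HLs it was the higher one, at 1.98 times. The peaks of a pair were separated by 176 bp in FLs and by 135 bp in HLs. The proximal peaks overlapped over 364 bp, which is 92.6% of the FL peak and 98.6% of the HL peak, and their summits were 75 bp apart. The distal HL peak held 2 summits, at 15434964 (fold 3.58) and 15435102 (fold 2.60), which lay on either side of the FL summit at 15435061, by 97 and 41 bp. A further HL peak about 1.8 kb from this FL summit had a fold of 2.89 (q = 1).

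**Figure D2:**
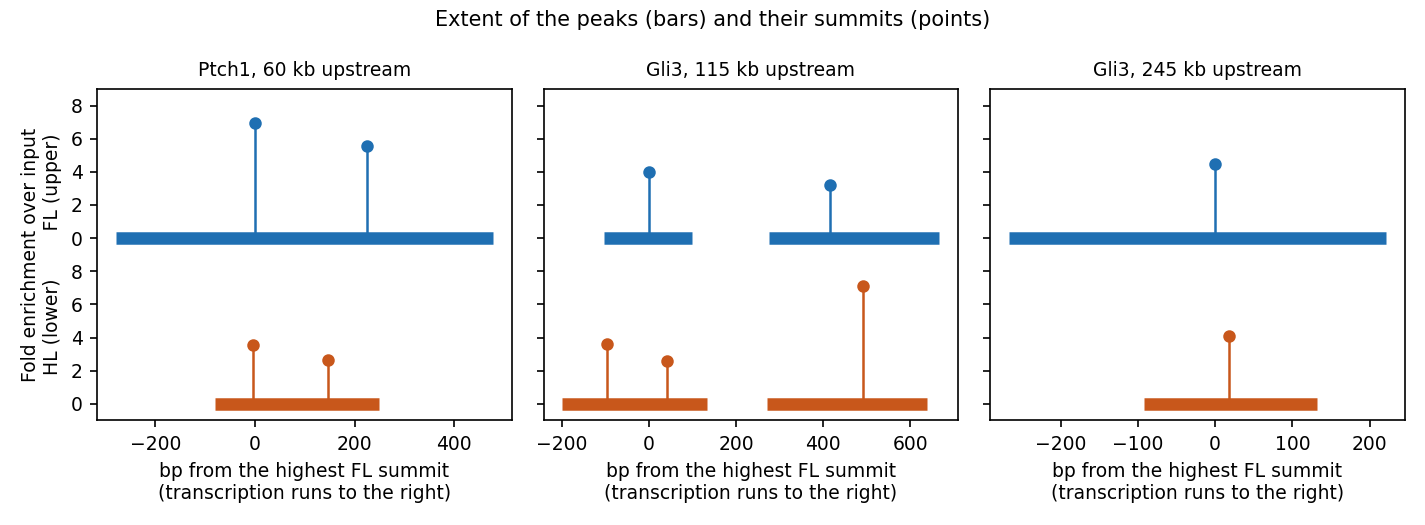
Close-up of the 3 upstream places with peaks in both limbs, with bp from the highest FL summit of the place on the x axis and fold enrichment over input on the y axis (FL in the upper row, HL in the lower row). Bars show the extent of each peak and points its summits. The higher FL and HL summits at Ptch1 coincide within 3 bp, and at 115 kb upstream of Gli3 the proximal peak has a fold of 7.11 in HLs and 3.19 in FLs.

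**Figure D3:**
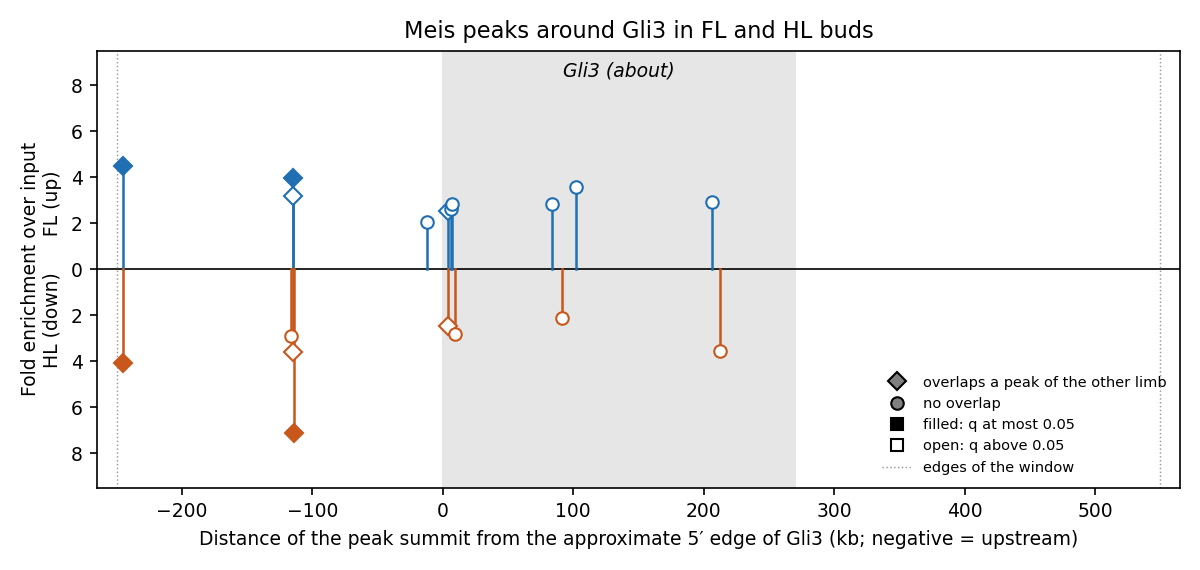
Meis peaks in the Gli3 window, drawn as for Ptch1: distance of the summit from the approximate 5′ edge in kb on the x axis, fold enrichment over input on the y axis, FL upwards and HL downwards. Filled symbols (q at most 0.05) are found only upstream of the gene interval, and the right part of the window holds no peak in either limb.

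Around the 5′ edge of Gli3, both limbs had weak peaks. The FL and HL peaks about 4 kb inside the edge overlapped, with folds of 2.54 and 2.45 (q = 1 in both), and their summits were 40 bp apart. FLs had further peaks about 6 and 7 kb inside the edge, with folds of 2.64 and 2.84, and HLs had one about 9 kb inside it, with a fold of 2.81. FLs also had a peak about 12 kb upstream of the edge, with a fold of 2.08. None of these peaks had a q below 1.

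Deeper in the gene, FL and HL peaks lay near one another without overlapping. The FL peaks about 84 and 102 kb inside the edge had folds of 2.83 and 3.59 (q = 1 and 0.499), and the HL peak about 91 kb inside it had a fold of 2.13 (q = 1). Farther along the gene interval, an FL peak about 207 kb inside the edge had a fold of 2.92 (q = 1), and an HL peak about 213 kb inside it had a fold of 3.57 (q = 0.386). The summits of this last pair were 6.18 kb apart. Beyond them, no peak of either limb lay downstream of the Gli3 interval in the window. From the last FL summit in Gli3 to the next one on the chromosome there were 359 kb, and the corresponding HL distance was 353 kb.

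By count, with weak peaks included, the distribution along each gene thus differed. The upstream part of the Gli3 window held 4 FL and 4 HL peaks over 250 kb, the gene interval held 6 and 4 over 270 kb, and the downstream part held 0 and 0 over 280 kb. At Ptch1, the upstream part held 3 FL and 2 HL peaks over 330 kb, the interval held 5 and 0 over 60 kb, and the downstream part held 1 and 3 over 210 kb. Of the 5 FL peaks in the Ptch1 interval, only that with a fold of 2.97 had a p of at most 0.0005. The median fold upstream was 3.58 in FLs and 3.84 in HLs at Gli3, against 2.83 and 2.63 in the gene interval. At Ptch1 the FL median was 3.76 upstream and 2.66 in the interval, with a single downstream peak at 2.58. The HL median at Ptch1 was lower upstream (2.97) than downstream (3.40).

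Peaks of the limbs overlapped more often at Gli3 than at Ptch1 by count. At Gli3, 4 of 10 FL peaks (40%, 95% Wilson interval 16.8 to 68.7%) and 4 of 8 HL peaks (50%, 21.5 to 78.5%) overlapped a peak of the other limb by at least 1 bp. The Gli3 counts include both of the adjacent peaks about 115 kb upstream, which were only 176 bp apart in FLs and 135 bp apart in HLs. At Ptch1 this held for 1 of 9 FL peaks (11.1%, 1.99 to 43.5%) and 1 of 5 HL peaks (20%, 3.62 to 62.4%). The shares over the whole lists were 22.6% of FL peaks and 29.0% of HL peaks, and all 4 intervals include them. The intervals of the 2 genes overlap each other as well.

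The overlapping pairs differed in which limb had the higher fold. FLs were higher at the Ptch1 site, by 1.95 times (log2 ratio of FL to HL 0.96), and HLs were higher at the proximal peak 115 kb upstream of Gli3, by 2.23 times (log2 ratio -1.16). The other 3 Gli3 pairs had log2 ratios of 0.13 at 245 kb, 0.15 at the distal peak 115 kb upstream and 0.050 near the 5′ edge, so their folds were within 1.11 times of each other. The median over the 4 Gli3 pairs was 0.089. Over all 4813 overlapping pairs of the lists the median was 0.17, with quartiles of -0.18 and 0.54, and the FL fold was the higher one in 62.1% of them. A ratio at least as high as that of the Ptch1 site was found in 416 pairs (8.64%). A ratio at least as low as that of the proximal Gli3 peak was found in 48 pairs (0.997%), and an HL fold at least 2 times the FL fold in 1.91% of all pairs. Without replicate libraries the error of these ratios is not known, and neither difference was tested.

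**Figure D4:**
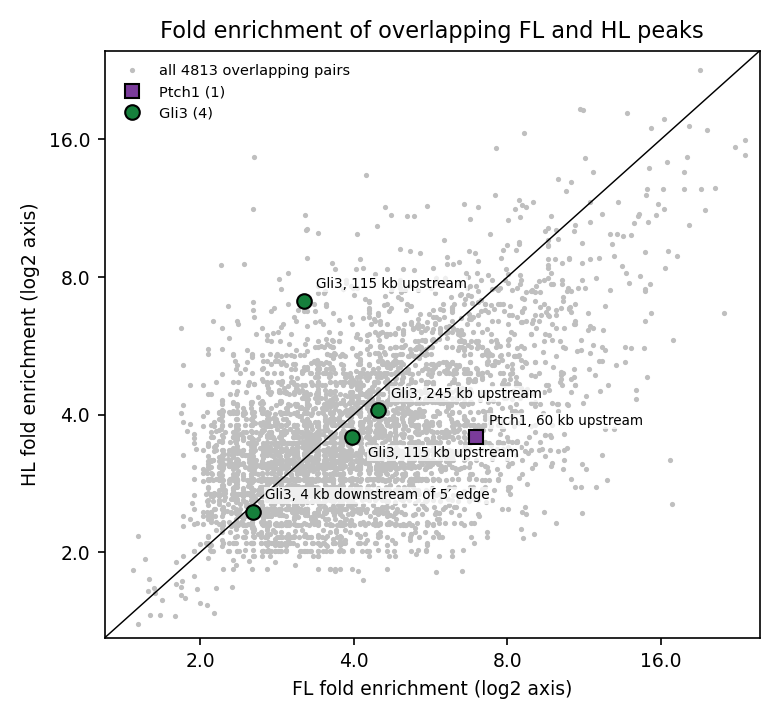
Fold enrichment in FLs (x axis) and HLs (y axis) of overlapping peaks, both on log2 axes, with all 4813 pairs in grey, the Ptch1 pair as a square and the 4 Gli3 pairs as circles. The line marks equal folds. Of the Gli3 pairs, 3 lie close to the line, the proximal peak 115 kb upstream lies above it at 3.19 and 7.11, and the Ptch1 pair lies below it at 6.95 and 3.57.

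The product of the p-values of a pair was 1.90e-17 at the Ptch1 site, 2.80e-18 at the proximal and 2.53e-10 at the distal peak 115 kb upstream of Gli3, 5.32e-16 at 245 kb and 2.47e-05 near the 5′ edge. A combined cutoff of 0.0005 does not sort these pairs, since no peak of either list has a p above 0.022 and all 4813 overlapping pairs meet it by construction.

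The highest peaks at Ptch1 and Gli3 were also ranked by fold among all peaks of the same limb. The FL peak upstream of Ptch1 was number 577 of 21338 by fold (top 2.70%), while the HL peak over it was number 2493 of 16987 (top 14.7%). The proximal HL peak upstream of Gli3 was number 229 (top 1.35%), and the FL peak over it was number 6562 (top 30.8%). The site 245 kb upstream of Gli3 was number 2353 in FLs (top 11.0%) and number 1532 in HLs (top 9.02%). A fold of at least 5 was reached by 1 FL peak at Ptch1 and 1 HL peak at Gli3, and by 7.67% of all FL peaks and 4.67% of all HL peaks. The median fold of the members was 2.66 in FLs and 3.40 in HLs at Ptch1 and 2.88 and 3.23 at Gli3, against 2.78 in both whole lists.

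**Figure D5:**
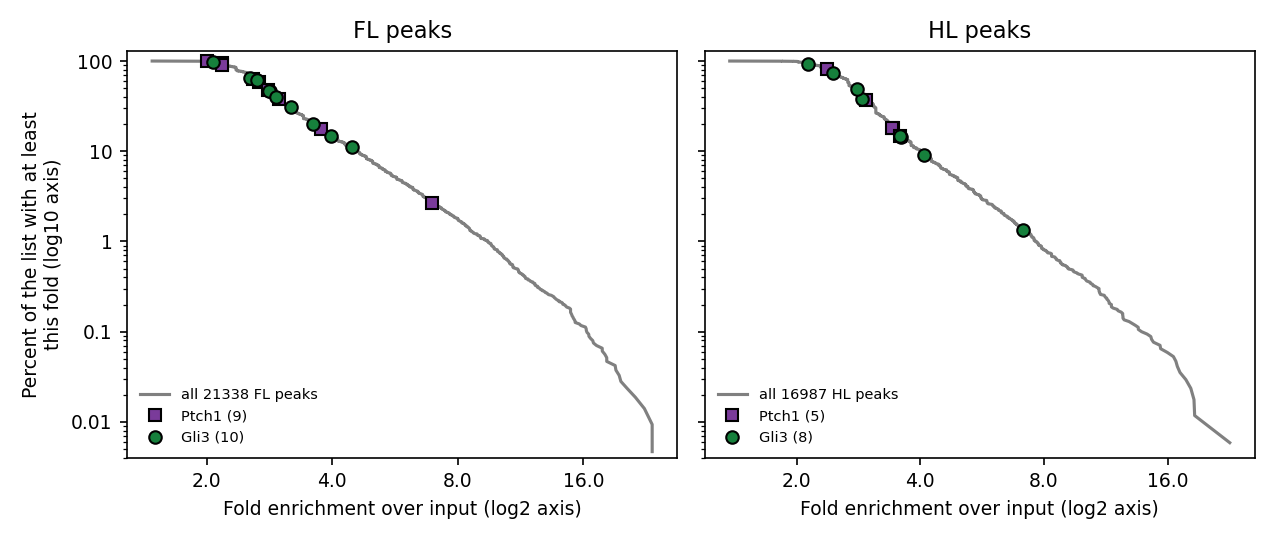
Share of each peak list (percent, log10 axis) with at least the fold enrichment given on the x axis (log2 axis), for FLs on the left and HLs on the right, with Ptch1 peaks as squares and Gli3 peaks as circles on the curve of all peaks. The rightmost member is a Ptch1 peak in FLs (fold 6.95, top 2.70%) and a Gli3 peak in HLs (fold 7.11, top 1.35%).

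The folds come in steps, which limits what small differences between weak peaks can show. The 16987 HL peaks had only 1377 distinct combinations of fold, p and q, and the 21338 FL peaks had 1838. The HL peak about 60 kb upstream of Ptch1 and the HL peak about 213 kb inside the 5′ edge of Gli3 had the same fold of 3.57, p of 4.13e-05 and q of 0.386, values that 226 HL peaks shared. The HL peak next to the pair upstream of Gli3, with a fold of 2.89, had values that 852 HL peaks shared, itself included.

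Some peaks lay close to the edges of the windows. The FL peak downstream of Ptch1 with a fold of 2.58 lay 0.541 kb inside the lower edge of its window, and the peaks 245 kb upstream of Gli3 lay 4.92 kb (FL) and 4.94 kb (HL) inside theirs. Just outside the Ptch1 window, an HL peak 53.5 kb above the upper edge had a fold of 8.82 (q = 9.53e-15), higher than any peak inside, and an HL peak 52.7 kb below the lower edge had a fold of 4.53 (q = 0.00209). The FL peaks nearest to that window had folds of 2.86 and 2.17 (q = 1 in both). Around the Gli3 window, the nearest peaks outside had folds of 3.41 (FL, q = 0.499) and 2.66 (HL, q = 1) below and 2.70 (FL) and 2.81 (HL), both with a q of 1, above, the last at 15.5 kb from the edge in both limbs.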

How the data were processed

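Peaks of the FL and HL Meis ChIP libraries were examined, and the inputs entered only through the peak calling of the authors. According to the methods, single-end reads of 50 bp were mapped to mm9 with BWA, duplicates were marked and alignments were filtered. MACS2 then called peaks with separate summits against the input, at a p of 0.022 in the lists used here. In the paper, that cutoff served to find peaks shared by the limbs, under a combined cutoff of 0.0005. Peaks specific to a limb were called there at 0.0005, which only 31.7% of FL and 37.0% of HL peaks of the present lists meet. The submitters' processing notes also name CASAVA 1.8.2 and cutadapt 1.3. The fold enrichment deposited by the authors is a ratio over the local input background. The authors' values of −log10 p and −log10 q were turned into p-values and q-values. The deposited score is 10 times −log10 p without decimals, for 22906 of 22906 FL and 17796 of 17810 HL summits, and the deposited summit offset gave the summit positions.

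Summits sharing their start and end made up a single peak, described by its highest summit. Positions are counted from 1. Overlap meant at least 1 bp (bedtools 2.31.1), and where an FL peak met several HL peaks, the one with the greatest fold was taken. Tiles ran along each chromosome up to the highest peak end in either list. Shares have 95% Wilson intervals. Every peak in the windows is described, which covers the naming rule (all peaks with q at most 0.05, the 5 highest of each gene and limb, and all overlapping pairs). The members and lists were chosen with earlier results of these data known. Alternatives changed the cutoffs, the overlap, the window, the pairing and the counting of summits. The merging and overlap steps were tested on simulated data. Scripts ran under Python 3.11.15 (pandas 2.3.3, numpy 2.4.6; plots with matplotlib 3.10.9). The genome and annotation used were of GRCm38 (GENCODE M21, RefSeq), no coordinate was converted, and the sequences under the peaks and the other genes of the Hedgehog pathway were not analysed here.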

Additional observations from a re-analysis of the deposited data

How the results depend on the processing

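Replicate libraries were lacking, so values carry no such error, and read depth, which the peak lists do not hold, limits which peaks enter them. No paired analysis was possible because each limb has a single library. A p of at most 0.0005 left 3 FL peaks at Ptch1, and 4 FL and 4 HL peaks at Gli3 (5 per Mb in each of these 3 cases). Over all chromosomes, 2.58 FL and 2.39 HL peaks per Mb met this cutoff. A fold of at least 5 left 1 FL and 0 HL peaks at Ptch1 and 0 FL and 1 HL peaks at Gli3. A window of 100 kb around the gene interval left 3 HL peaks at Ptch1 and 4 at Gli3. With p at most 0.0005 in place of the q cutoff, the counts of low values were 3 FL and 4 HL peaks at Ptch1 and 4 and 4 at Gli3, and a q of at most 0.01 left 1 FL and 1 HL peak at Gli3. Under a reciprocal overlap of 50%, 0 peaks of either limb overlapped at Ptch1, since the HL peak covers less than that of the wider FL peak. The median log2 ratio of FL to HL fold at Gli3 was 0.13 without the pair that had a q above 0.05 in both limbs. After subtraction of the median of all pairs, an alternative chosen after seeing the data, it turned to -0.079 at Gli3 and was 0.79 at Ptch1. Another 4 values, overlaps with a product of p at most 0.0005, could not change by construction. The other 29 recomputed values kept their direction and, where they are counts, stayed within 1.5 times of the reported one. They include the HL count at Ptch1 with a p of at most 0.0005 (4 peaks, 6.67 per Mb). They further include the counts after joining peaks under 500 bp apart, an alternative also chosen after seeing the data.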
